A study of Mus musculus with 6 samples.

Results

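The genes described here are 28 genes of cholesterol synthesis and its control, measured in GL261, a mouse glioma cell line. They were taken by name from a list of pathway members, matched to the gene names of the transcript models, and the levels of all models of a gene were summed. All 28 were found among 58296 genes, and all 28 were among the 15493 genes with enough signal to be tested. Total RNA was taken 4 h after 1 uM sodium propionate (3 libraries, numbered 1, 4 and 5 in the labels) or 1 uM sodium chloride (3 libraries, numbered 1, 2 and 3), so both groups received a sodium salt at the same dose and time. The dose is printed as the labels give it; nothing in the files tests its unit, and propionate is more often used on cells at millimolar doses. Propionate is a short-chain fatty acid. GL261 is 1 cell line, and no label ties the libraries to independent cultures, so each p-value reflects only how far these samples scatter, and that scatter may be technical.

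Mammalian cells build cholesterol from acetyl-CoA. Small units are first joined into mevalonate, mevalonate is turned into isoprenoids, isoprenoids are condensed to squalene, and squalene is closed and trimmed to cholesterol. The genes of the pathway are switched by the transcription factors SREBP-1 and SREBP-2, which are made as membrane proteins and travel with the escort protein SCAP from the endoplasmic reticulum to the Golgi, where they are cut and released. When sterols are plentiful, the INSIG proteins hold SCAP back. The liver X receptors sense oxidised sterols and switch genes that lower cellular cholesterol. Propionyl-CoA and acetyl-CoA are both short acyl-CoA units, and brain cells make most of their own cholesterol.

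SREBPs bind the sterol regulatory element, and they usually act beside the general factors NF-Y and Sp1. The sequences below come from RefSeq promoters (GRCm38.p6, the mm10 build), which cover 250 bases before and 50 bases after a start, and 23 of the 28 genes had at least 1 such window, with 32 windows in all. Fdps, Fdft1, Sqle, Stard4 and Npc1 had no entry. The motif TCACNCCAC was the form of the sterol regulatory element searched, on both strands. Of the 23 genes only Hmgcs1 held a match, and its 200 bases before the start are shown because of it. The window is chr13:119690151-119690350 on the plus strand, read 5′ to 3′. Capitals mark the motif TCACNCCAC, whose first base lies 137 bases before the start, and the NF-Y motif CCAAT read on the other strand as ATTGG, at 176 and 45 bases before it.
Hmgcs1: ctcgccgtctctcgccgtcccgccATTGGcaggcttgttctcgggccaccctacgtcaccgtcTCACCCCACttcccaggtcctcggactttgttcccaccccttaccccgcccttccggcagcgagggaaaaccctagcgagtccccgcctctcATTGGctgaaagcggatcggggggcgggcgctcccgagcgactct

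Short stretches around CCAAT are shown for Insig1, Idi1, Cyp51, Msmo1 and Hsd17b7, because these genes, with Hmgcs1, were lowest in the same pair of libraries. For Hsd17b7 the margin was narrow. Each is 25 bases, read 5′ to 3′ along the gene, with CCAAT or its reverse complement ATTGG in capitals. They lie at chr5:28071186-28071210 (plus strand), chr13:8885551-8885575 (plus), chr5:4104712-4104736 (minus), chr8:64733724-64733748 (minus) and chr1:169969264-169969288 (minus). Msmo1 and Hsd17b7 held 3 matches each and Idi1 held 2, and 1 of each is shown. Their first capital lies 216, 45, 29, 160 and 73 bases before the RefSeq start. In Idi1, Cyp51, Msmo1 and Hsd17b7 the capitals lie inside the span of a transcript model measured here, so they precede the RefSeq start only.
Insig1: ccctcctcccATTGGctccggcggc
Idi1: cctccagctgATTGGcgagcccggg
Cyp51: ctgtccgccaCCAATctggtcctga
Msmo1: atccgcgcagCCAATgactggcgcc
Hsd17b7: ccgagtcgcgATTGGcgggcctaac

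The sterol element was found in 1 of the 23 genes, and in 1.24% of all 32851 windows and 1.4% of the 9246 tested genes with a window. CCAAT was found in 19 of the 23, against 44.4% of those tested genes and 37.4% of all windows. The Sp1 motif GGGCGG was found in 20 of the 23, against 69.7% and 35.7%. The E-box CACGTG was found in 5 (Scap, Insig1, Hsd17b7, Sc5d and Dhcr7), against 11.9% and 7.15%. All 4 motifs were searched on both strands. A match is a description of letters and not of a bound site, and a missing match says only that these letters are not in this window.

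The libraries held 9.15 to 11.3 Gb of counted bases. Chloride 3 and propionate 1 had fewer transcript models with any coverage, 71452 and 71192, against 81178 to 82370 in the other 4, so results for the 28 genes are read with this pair in view. Of 10 glioma and neural stem markers, 8 had a mean of at least 1 TPM (a relative transcript abundance corrected for length), and Gfap and Prom1 did not. The summed glioma markers ranged from 3543 to 3967 TPM in chloride and from 3822 to 4207 in propionate. Of 8 microglia and macrophage markers, 2 (Csf1r and Cd68) reached 1 TPM, Itgam, Tyrobp and Adgre1 were listed at 0 in every library, and the list summed to 4.61 to 6.26 TPM in chloride and 4.76 to 6.14 in propionate. Neuron markers summed to 78 to 79 TPM in chloride and 73.9 to 89.9 in propionate, of which Tubb3 made up nearly all, with Rbfox3 and Snap25 listed at 0. Endothelial and fibroblast markers summed to under 2 TPM in every library. In bulk RNA, fewer cells of a type and less RNA per cell cannot be told apart.

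No gene of the pathway passed the test. Of the 28 genes, 0 were higher and 0 lower past a Benjamini-Hochberg adjusted p of 0.05 (limma on log2(scaled TPM + 1), adjusted over all genes), and the lowest adjusted p was 0.914. Over all genes 0.00645% passed, which is 1 gene. At an unadjusted limma p under 0.05 there was 1 of the 28 genes, Acat2, or 3.57%, against 5.14% of all genes. With voom, a limma variant on estimated reads, the genes under that level were instead Npc1 and Nr1h3, and Acat2 was not under it. TPM as deposited gave Npc1 alone (limma, unadjusted p = 0.0321), and Acat2 had an unadjusted limma p of 0.225. The count was 3 without chloride 1 (Acat2, Mvk and Nsdhl) and 3 with reference transcripts alone (Scap, Insig2 and Acat2). Over all genes, 829 of 15493 were under that level with voom and 1168 of 15493 with TPM as deposited. Without chloride 1 there were 836 of 15493, and with reference transcripts alone 630 of 13214. By sign alone 19 genes stood higher in propionate and 9 stood lower, at a median log2 difference of 0.06 against 0.0055 over all genes. With TPM as deposited, without scaling of the libraries, 9 were higher and 19 lower, with a median of -0.03. The change of scale shifted the whole distribution, with 23.8% of all genes higher in place of 51.8% and a median of -0.08. Under both scalings 19 of the 28 lay above the median of all genes, as did 7746 of all 15493 genes. Scaling by 1 factor per library moves all genes nearly alike, so this count could hardly change between the scalings.

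The differences were also narrow. They ran from -0.12 for Npc1 to 0.20 for Acat2, Mvk and Nr1h3 on the log2 scale. The 95% interval of every one of the 28 lay within 1.5-fold in either direction, and the same held for 78% of all genes and 91% of protein-coding genes. The interval that reached highest was that of Nr1h3, at 1.41-fold, and the one that reached lowest was that of Tm7sf2, at 0.747-fold. On this scale a fold change is understated for genes with low levels, such as Tm7sf2, Mvd and Mylip. The 3 propionate libraries lay wholly above or below the 3 chloride libraries for 4 of the 28 genes, or 14.3%, against 11.7% of all genes. Those 4 were Acat2, Mvk and Mylip, higher in propionate, and Npc1, lower.

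**Figure D1:**
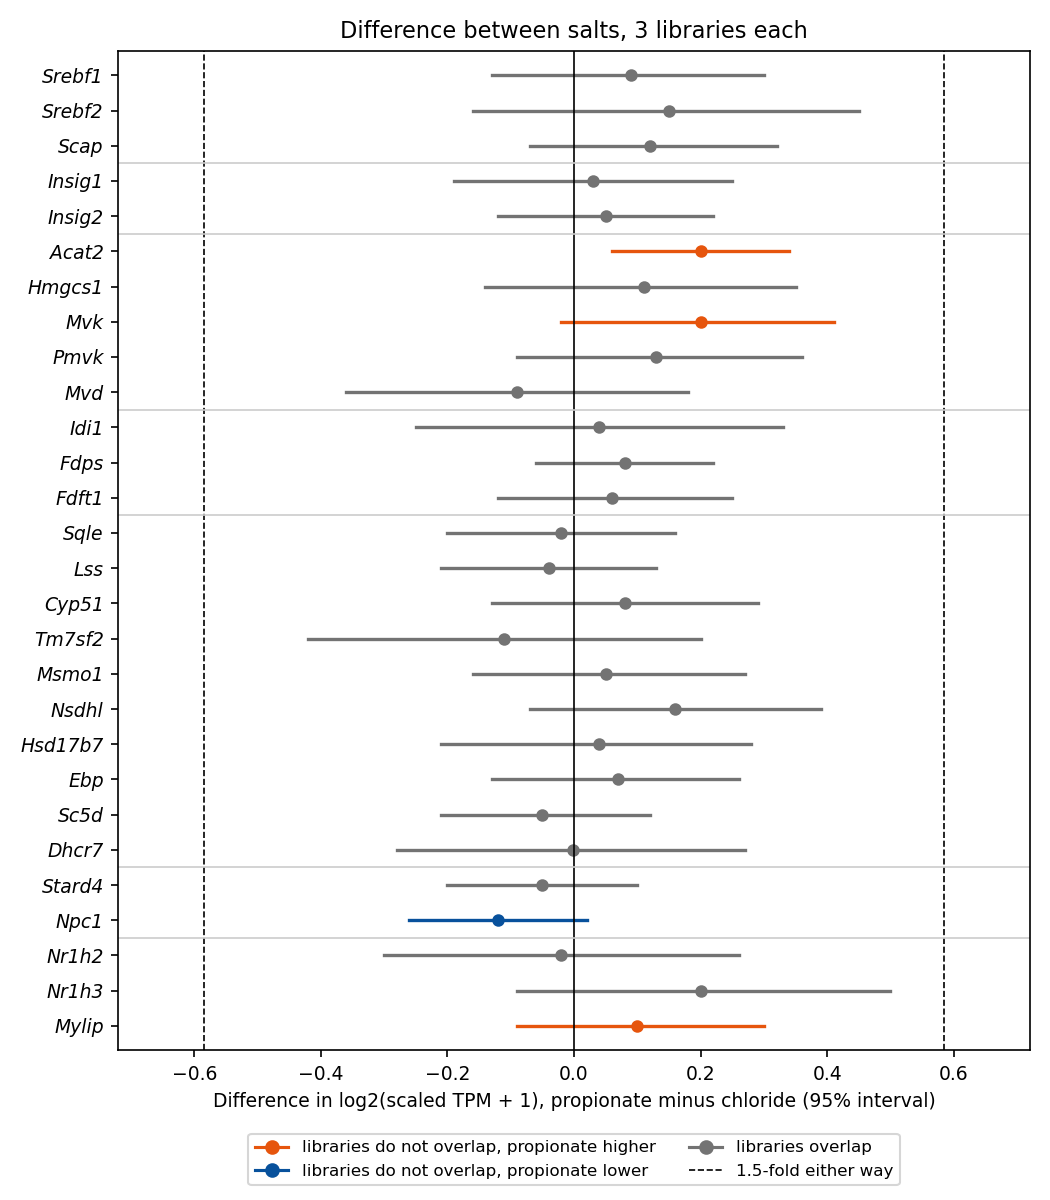
Difference between propionate and chloride for each gene, as log2(scaled TPM + 1) with its 95% interval (x axis), by gene and in the order of their roles (y axis), with 3 libraries per salt. Dashed lines mark 1.5-fold in either direction. All 28 intervals lie between the dashed lines, 27 cross 0, and the colours mark the 4 genes whose libraries do not overlap.

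Levels spanned from 4.69 scaled TPM for Tm7sf2 to 131 for Msmo1, as means of the 6 libraries, with a median of 18.9. Msmo1, a C-4 sterol methyl oxidase, stood above 93.6% of tested genes, and Fdps, farnesyl diphosphate synthase, above 89.9%. Ebp, Cyp51, Hmgcs1 and Acat2 followed at 66, 64.6, 48.4 and 47.7 scaled TPM. Neighbours in this order often lay within each other's range: Ebp ran from 58.8 to 72.4 and Cyp51 from 56.2 to 69.6, and Hmgcs1 from 41.6 to 53.3 and Acat2 from 43.5 to 53.5. At the low end were Mylip at 5.71, Mvd at 5.21 and Tm7sf2 at 4.69 scaled TPM. The spread of a gene over the 6 libraries, as a coefficient of variation, ran from 3.77% for Stard4 to 14.7% for Srebf2.

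**Figure D2:**
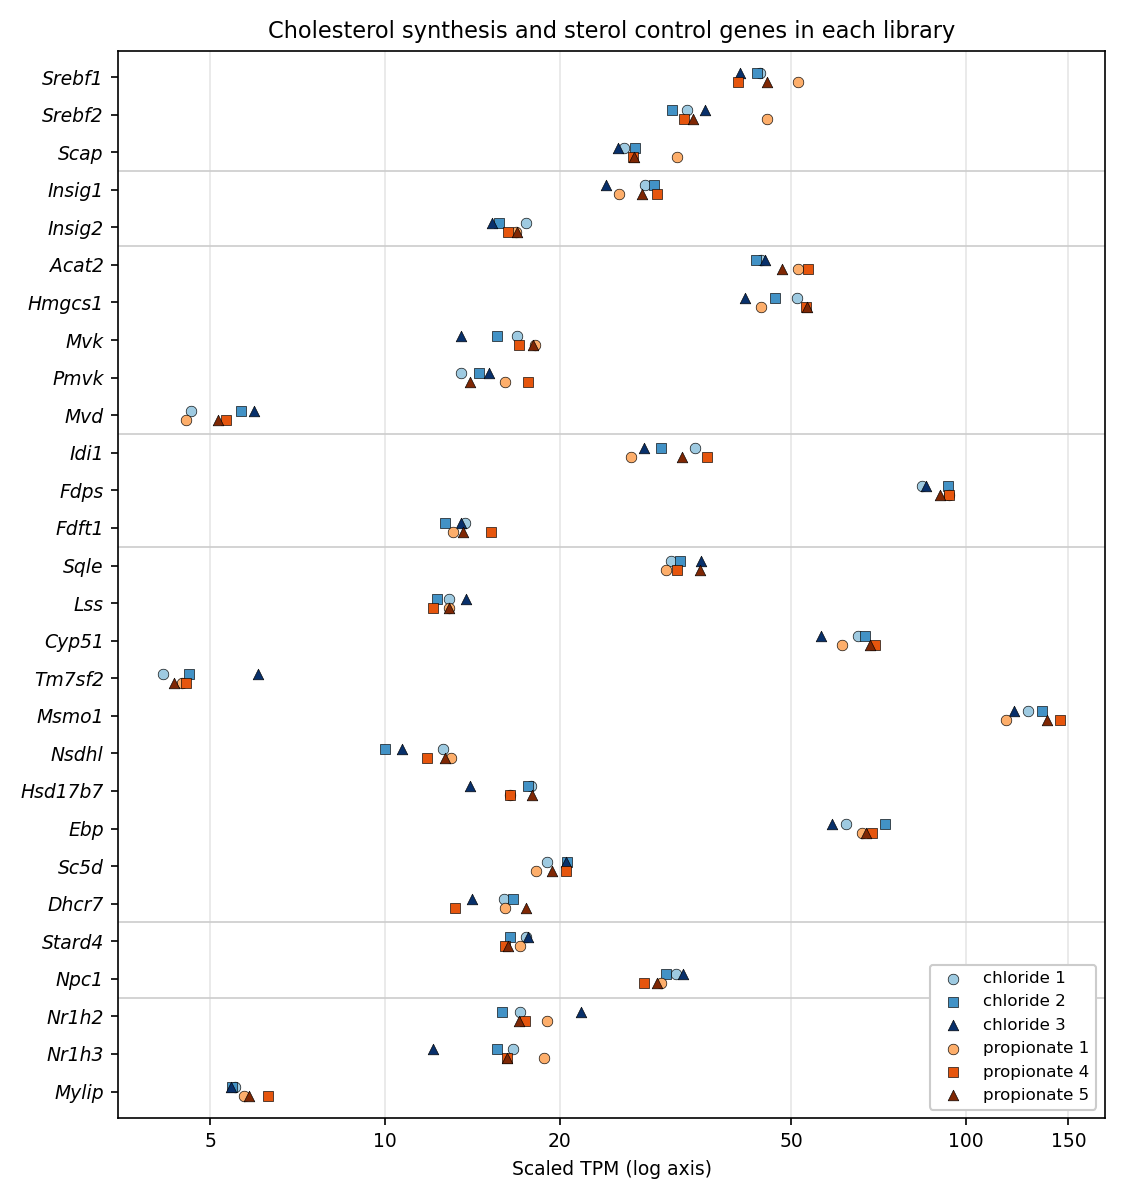
Scaled TPM of each gene (log x axis) in the 3 chloride libraries (blue) and the 3 propionate libraries (orange), with genes in the order of their roles (y axis) and 1 point per library. Blue and orange points interleave for 24 of the 28 genes, and Acat2, Mvk, Mylip and Npc1 are the exceptions.

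The transcription factors and their escort stood high in 1 propionate library and alike elsewhere. Srebf2 encodes SREBP-2, the main driver of the cholesterol genes, and was measured at 33.1, 31.2 and 35.6 scaled TPM in chloride (libraries 1, 2 and 3, in this order throughout) and 45.5, 32.7 and 33.9 in propionate (1, 4 and 5). Propionate 1 was the high library and the other 5 lay between 31.2 and 35.6. The difference was 0.15 ± 0.13 on the log2 scale (standard error, limma adjusted p = 0.931), and without propionate 1 it was -0.00073. Srebf1, which encodes SREBP-1, had 44.2, 43.7 and 40.8 scaled TPM in chloride and 51.3, 40.5 and 45.4 in propionate. Scap, the escort, had 25.8, 26.9 and 25.2 in chloride and 31.8, 26.7 and 26.8 in propionate, and its difference of 0.12 was 0.04 without propionate 1. All 3 of these genes were highest in propionate 1, where their median deviation from their own means was 0.22 on the log2 scale, and the groups overlapped for each. Propionate 1 was also the highest library for 25.3% of all genes.

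Srebf1 has an upstream first exon, which gives the longer SREBP-1a, and a downstream one, which gives SREBP-1c. The gene lies on chromosome 11 on the minus strand, from 60199089 to 60222581 in mm10. Models that start at 60220635 made up 78.4% to 90.9% of its level over the 6 libraries, on average 83.1% in chloride and 85.5% in propionate. Models that start at 60210465 made up 1.73% to 8.58%, on average 5.7% and 5.33%. The upstream start thus carried most of the signal in every library, at 34.6, 39.6 and 32.7 scaled TPM in chloride and 46.7, 33.8 and 37.2 in propionate.

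Neither retention protein gene was highest in propionate 1. Insig1, a gene that SREBPs themselves are known to drive, had 28, 29 and 24 scaled TPM in chloride and 25.3, 29.4 and 27.7 in propionate. Its lowest libraries were chloride 3 and propionate 1, 1 of each salt. Insig2, which is known to respond less to SREBPs, had 17.5, 15.7 and 15.3 in chloride and 16.8, 16.3 and 16.9 in propionate. The log2 differences were 0.03 ± 0.09 for Insig1 and 0.05 ± 0.07 for Insig2 (limma adjusted p = 0.978 and 0.941).

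The steps from acetyl-CoA to the isoprene units held the gene with the smallest p. Acat2 encodes the cytosolic acetoacetyl-CoA thiolase, which joins a pair of acetyl-CoA molecules, and lies on chromosome 17 on the minus strand, from 12942890 to 12960747. It was measured at 44.4, 43.5 and 45 scaled TPM in chloride and 51.4, 53.5 and 48.2 in propionate. All 3 propionate libraries were above all 3 chloride libraries. The means were 44.3 ± 0.776 and 51.1 ± 2.66 (SD, n = 3), and the log2 difference was 0.20 ± 0.06 (limma, unadjusted p = 0.0124, adjusted p = 0.914). Over the alternative settings the difference stayed positive, from 0.10 to 0.24, with adjusted p from 0.304 to 1. It was smallest, at 0.10, with TPM as deposited and with voom.

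Of the 31-base stretches in Acat2 transcripts, 43.7% also occur in Acat3, a neighbouring near-copy, so the division of reads between the genes is uncertain. Acat3 was measured at 9.87, 9.16 and 6.2 scaled TPM in chloride and 8.24, 11.4 and 8.93 in propionate, with overlap between the groups. The sum of both genes was 54.3, 52.6 and 51.2 in chloride and 59.7, 64.9 and 57.2 in propionate. The sum kept the 2 groups apart, with a log2 difference of 0.20, chosen after the values were seen and not tested.

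Hmgcs1, the HMG-CoA synthase that adds the next acetyl unit, had 51.2, 46.9 and 41.6 scaled TPM in chloride and 44.4, 53 and 53.3 in propionate. Its 2 lowest libraries were again chloride 3 and propionate 1. Mvk, mevalonate kinase, had 16.9, 15.6 and 13.5 in chloride and 18.1, 17 and 18 in propionate. The groups did not overlap but nearly touched, and the difference was 0.20 ± 0.09 (limma, unadjusted p = 0.0649, adjusted p = 0.914), or 0.11 without chloride 3. Pmvk, phosphomevalonate kinase, had 13.5, 14.5 and 15.1 in chloride and 16.1, 17.6 and 14 in propionate, while Mvd, the decarboxylase that follows, had 4.63, 5.64 and 5.96 in chloride and 4.54, 5.32 and 5.15 in propionate. Both overlapped. By sign 4 of these 5 genes were higher and Mvd was lower, and the median difference was 0.13.

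The isoprenoid condensation genes were each highest in propionate 4, though for Fdps only narrowly (93.6 scaled TPM against 93.5 in propionate 1). Idi1, isopentenyl diphosphate isomerase, had 34.1, 29.8 and 27.9 scaled TPM in chloride and 26.5, 35.8 and 32.4 in propionate. Fdps, which makes farnesyl diphosphate, had 83.8, 93.1 and 85.4 in chloride and 93.5, 93.6 and 90.3 in propionate. Fdft1, squalene synthase, had 13.7, 12.7 and 13.5 in chloride and 13.1, 15.2 and 13.6 in propionate. Log2 differences were 0.04 ± 0.12, 0.08 ± 0.06 and 0.06 ± 0.08, with limma adjusted p from 0.921 to 0.975. These 3 genes also shared sequence or exons with others. Of their 31-base stretches, 27.9% in Fdps, 18.8% in Idi1 and 14.3% in Fdft1 also occur in transcripts of other genes. Most of these are shared with Gm43738, Gm13502 and Gm6781, in that order. Gm43738 overlaps 1124 bases of Fdps exons (26.7%) on the same strand, so there the same sequence is annotated under both names. In Fdft1, 774 bases of exons (18.3%) lie opposite exons of Ctsb, and in Idi1, 323 bases (9.22%) lie opposite exons of Gm48574. Of the genes above, Scap and Hmgcs1 have 985 and 557 exon bases (13.2% and 12.1%) opposite the gene models 5830462I19Rik and Gm48342. No source used here gives the use of strand in the counting, so levels of genes with opposite exons are uncertain to that extent. Where stretches or same-strand exons are shared, as for Fdps, levels are uncertain whatever the strand setting.

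From squalene to cholesterol, 5 of 10 genes had a positive and 5 a negative difference, with 0.02 as their median. Sqle, squalene epoxidase, is a rate-controlling enzyme and stood at 31.1, 32.2 and 35 scaled TPM in chloride and 30.5, 31.8 and 34.9 in propionate. The groups spanned nearly the same range, and the difference was -0.02 ± 0.08 (limma adjusted p = 0.984). Lss, lanosterol synthase, which closes the rings, had 12.9, 12.3 and 13.8 in chloride and 12.9, 12.1 and 12.9 in propionate. Cyp51, lanosterol 14-demethylase, had 65.1, 67.1 and 56.2 in chloride and 61.2, 69.6 and 68.3 in propionate. Both overlapped, and Cyp51 had its 2 lowest libraries in chloride 3 and propionate 1.

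Tm7sf2, a sterol C-14 reductase, had 4.15, 4.6 and 6.04 scaled TPM in chloride and 4.47, 4.54 and 4.34 in propionate. Chloride 3 was the high library, and without it the difference turned from -0.11 to 0.02. Tm7sf2 shares 532 bases of exons on the same strand with Vps51, and summed over the assembled locus the difference was 0.07. The products of Msmo1, an oxidase, Nsdhl, a dehydrogenase that decarboxylates, and Hsd17b7, a keto-reductase, together remove the C-4 methyl groups. Msmo1 had 128, 135 and 121 scaled TPM in chloride and 117, 145 and 138 in propionate, with chloride 3 and propionate 1 lowest. Nsdhl had 12.6, 10 and 10.7 in chloride and 13, 11.8 and 12.7 in propionate, a difference of 0.16 ± 0.10 (limma adjusted p = 0.914). Hsd17b7 had 17.8, 17.6 and 14 in chloride and 16.4, 16.4 and 17.9 in propionate, so within these 3 enzymes the libraries did not share an order.

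For the last enzymes the salts overlapped. Ebp, the sterol isomerase, had 62.2, 72.4 and 58.8 scaled TPM in chloride and 66.3, 68.8 and 67.3 in propionate. Sc5d, sterol C-5 desaturase, had 19, 20.6 and 20.5 in chloride and 18.2, 20.5 and 19.4 in propionate. Dhcr7, 7-dehydrocholesterol reductase, had 16, 16.6 and 14.1 in chloride and 16.1, 13.2 and 17.5 in propionate. The propionate values of Ebp lay inside the chloride range, and for Dhcr7 both the lowest and the highest library were propionate. Its difference was -0.0022 ± 0.12 (limma adjusted p = 0.999).

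Sterol transport was represented by Npc1 and Stard4, both lower by sign. Npc1 exports cholesterol from lysosomes and had 31.7, 30.4 and 32.5 scaled TPM in chloride and 29.8, 27.9 and 29.4 in propionate. All 3 propionate libraries were below all 3 chloride libraries, with means of 31.6 ± 1.11 and 29 ± 0.996 (SD, n = 3). The difference was -0.12 ± 0.06 (limma, unadjusted p = 0.0893, adjusted p = 0.914), and it was negative in every setting tried, from -0.29 to -0.09. Stard4, a cytosolic sterol carrier, had 17.5, 16.4 and 17.6 in chloride and 17.1, 16.1 and 16.3 in propionate, with overlap between the groups. Npc2, the soluble protein that hands cholesterol to NPC1 in the lysosome, had 48.8, 50.6 and 47.1 in chloride and 50.8, 55 and 53.1 in propionate. Its groups did not overlap either, in the opposite direction to Npc1, and its difference of 0.11 ± 0.06 did not pass (limma, unadjusted p = 0.0911, adjusted p = 0.914).

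Among the liver X receptors, Nr1h2 and Nr1h3 had their extremes in the same library. Nr1h2, the widely expressed receptor LXR-beta, had 17.1, 15.9 and 21.7 scaled TPM in chloride and 19, 17.4 and 17 in propionate, with chloride 3 high. Nr1h3, LXR-alpha, had 16.6, 15.6 and 12.1 in chloride and 18.8, 16.2 and 16.2 in propionate, with chloride 3 low. The Nr1h3 difference was 0.20 ± 0.12 (limma adjusted p = 0.914), but 0.08 without chloride 3 and 0.0076 without chloride 3 and propionate 1. Mylip, a ubiquitin ligase gene that the receptors drive, had 5.52, 5.45 and 5.44 in chloride and 5.72, 6.28 and 5.84 in propionate. The groups were apart, at 5.47 ± 0.0406 and 5.95 ± 0.298 (SD, n = 3), with a difference of 0.10 ± 0.08 (limma, unadjusted p = 0.258, adjusted p = 0.927).

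For 26 of the 28 genes the log2 range within 1 salt exceeded the difference between the salts, as it did for 94.7% of all genes. The larger of the 2 within-salt ranges had a median of 0.30, and the absolute difference between salts a median of 0.08. Chloride 3 and propionate 1 were the 2 lowest libraries for Insig1, Hmgcs1, Idi1, Cyp51, Msmo1 and Hsd17b7. That is 6 of 28 genes (21.4%), and among the 18 enzymes 5 (27.8%), where all genes gave 15.1% and protein-coding genes 17.3%. Hsd17b7 was among them by a narrow margin, at 16.4 scaled TPM in both propionate 1 and propionate 4. With TPM as deposited Ebp took the place of Hsd17b7. Chloride 3 and propionate 1 were the 2 highest for Srebf2 and Nr1h2, or 7.14% against 14.6% of all genes. The pair moved with fewer covered models, and its part in these levels was not tested.

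In propionate 1 the transcription factors and Scap stood at a median of 0.22 above their means, while the 18 enzymes stood at -0.03. In chloride 3 both stood low, the transcription factors and Scap at -0.10 (2 of 3 below their own mean) and the enzymes at -0.09 (12 of 18 below). Propionate 4 was the highest library for 7 of the 18 enzymes (38.9%), against 19.8% of all genes and 23.2% of protein-coding genes. Propionate 5 was the lowest for 0 of the 18, against 11% of all genes and 9.74% of protein-coding genes. Without chloride 3 and propionate 1 together, 0 of the 28 genes passed in either direction, and the median difference was 0.03.

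**Figure D3:**
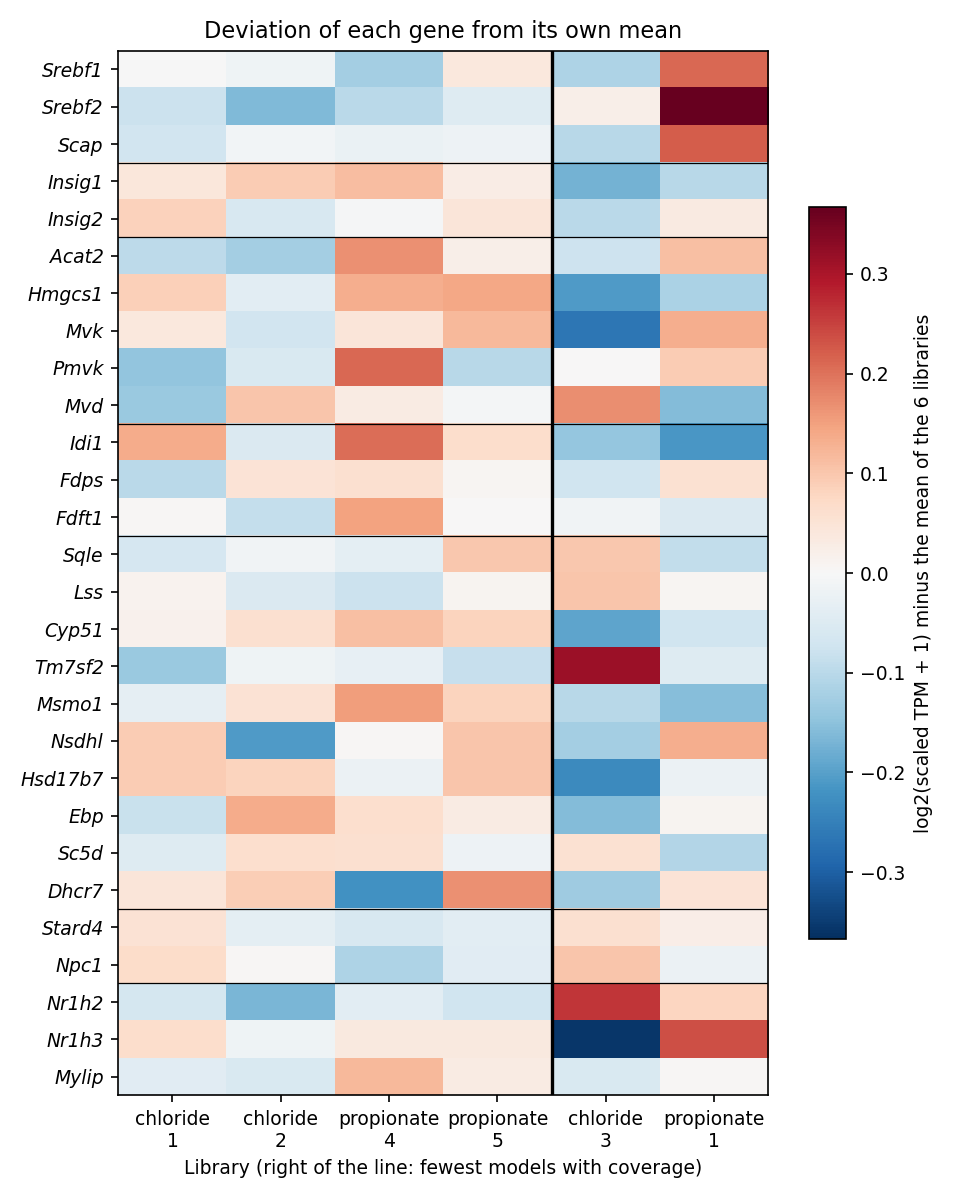
Deviation of each gene (rows, in the order of their roles) in each library (columns) from its own mean over the 6 libraries, on the log2(scaled TPM + 1) scale, where red is above and blue below. The 2 columns at the right are chloride 3 and propionate 1, which are blue together for Insig1, Hmgcs1, Idi1, Cyp51 and Msmo1. Both are also below the mean for Hsd17b7 (-0.234 and -0.0211) and Fdft1 (-0.0139 and -0.0521). Propionate 1 is red for Srebf1, Srebf2 and Scap.

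Each sum per gene rests on several transcript models. The 28 genes had 203 models, of which 69 could be tested and 0 passed (limma, adjusted over 35755 models, of which 0.0364% passed). At an unadjusted limma p under 0.05 there were 2 (2.9%, against 4.58% of all models), Insig2-201 and Mvk-201, both with adjusted p = 0.862. Insig2-201 had 9.39, 12.3 and 13 scaled TPM in chloride and 7.71, 6.62 and 6.03 in propionate, a log2 difference of -0.68 ± 0.17. It made up 53.8% to 85% of Insig2 in chloride and 35.6% to 45.9% in propionate, and the sum of all Insig2 models differed by 0.05. Mvk-201 had 4.96, 2.65 and 3.7 in chloride and 10.6, 7.56 and 7.08 in propionate, a difference of 0.99 ± 0.25. The groups overlapped in neither model, but both were chosen by small p, and the share of all models without overlap is not given here.

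For other genes the models traded places between libraries of 1 salt. Acat2-201 was measured at 43.7, 42.7 and 10.8 scaled TPM in chloride and 20.2, 7.63 and 22.3 in propionate, or 14.3% to 98.4% of the gene. Acat2-204 had 26.9 in chloride 3 and 17.2 to 29.1 in propionate, and the other chloride libraries listed it at 0. Dhcr7-201 was listed at 0 in 5 libraries and at 11.3 in propionate 1, while the gene as a whole stayed between 13.2 and 17.5. An exact 0 can be a failed estimate where a quantifier divides reads among overlapping models.

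The choice of models therefore mattered for some genes. When only reference transcripts were summed, Dhcr7 stood at 0.226, 4.83 and 0.652 scaled TPM in chloride and 16.1, 0.425 and 14.9 in propionate, because assembled models held up to 98.6% of it. On that sum its difference was 1.67, that of Scap 0.74 and that of Insig2 -0.67, and none of the 28 passed. For 17 of the 28 genes no assembled model entered the sum in any library.

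**Figure D4:**
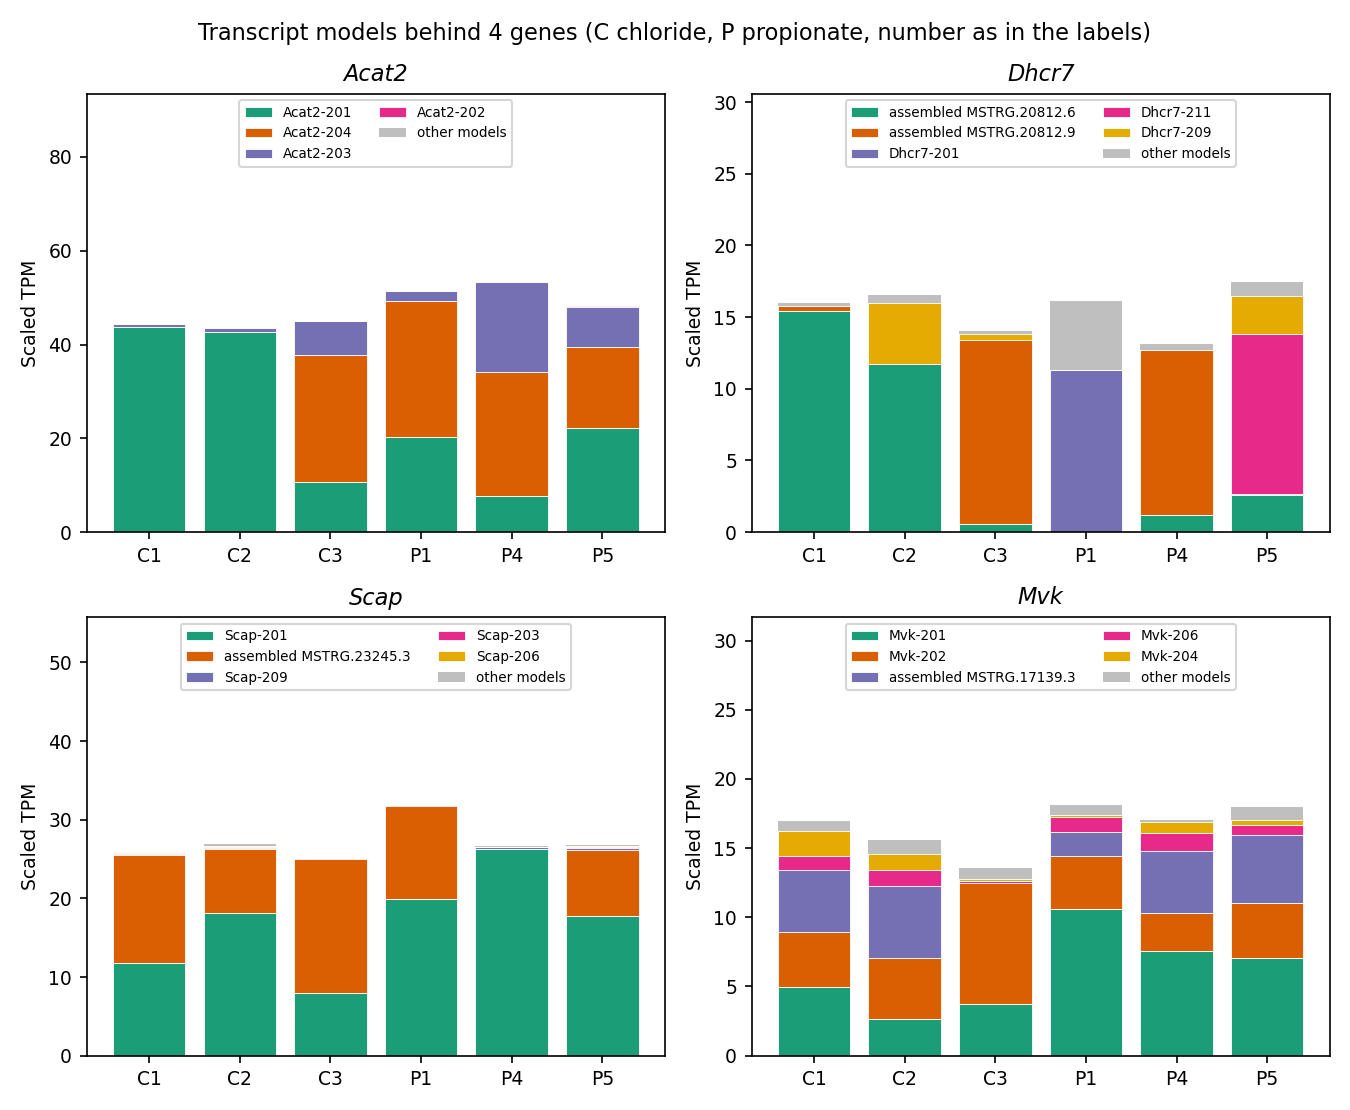
Scaled TPM (y axis, from 0) of the transcript models of Acat2, Dhcr7, Scap and Mvk in each library (x axis, C for chloride and P for propionate with the label's number), stacked by model with the 5 most abundant in colour and all others in grey. The total height changes less between libraries than the filling by model. It runs from 43.5 to 53.5 for Acat2 and from 13.5 to 18.1 for Mvk. Acat2-201 fills 98.4% of 1 chloride bar and 24% of another, and the Dhcr7 bars are filled by different models.

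No gene of 4 lists around the pathway passed either, and 0 had an unadjusted limma p under 0.05. By sign 51.8% of all genes were higher in propionate, at a median of 0.0055. With TPM as deposited it was 23.8%, so sign counts of the lists depend on the scaling. Of 14 genes that process SREBPs or degrade sterol-regulated proteins, 13 were tested, 0 passed in either direction, 10 were higher and 3 lower by sign, and the median was 0.05. Those with the smallest p were Rnf139, an endoplasmic reticulum ubiquitin ligase, and Vcp, the ATPase that extracts proteins from that membrane. Rnf139 had 22.3, 36.6 and 23 scaled TPM in chloride and 34.6, 33.9 and 35.6 in propionate, while Vcp had 347, 230 and 315 in chloride and 241, 237 and 238 in propionate. In both genes chloride 2 lay with the propionate libraries, and chloride 1 and 3 stood apart.

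Of 15 genes of the isoprenoid branch after Fdps, which lead to ubiquinone, dolichol and prenylated proteins, all were tested and 0 passed, with 6 positive and 9 negative differences, whose median was -0.01. The smallest p values belonged to Rce1, a protease of prenylated proteins (0.14 ± 0.09), and Fntb, a farnesyltransferase subunit (-0.22 ± 0.14), both with a limma adjusted p of 0.914. Of 21 genes of sterol transport, storage and oxidation 16 were tested and 0 passed, with 8 positive and 8 negative differences around a median of -0.0063. Npc2 and the oxysterol-binding protein gene Osbpl9 (0.10 ± 0.06) had the smallest p values there. Of 17 fatty acid genes that SREBP-1 is known to drive, 13 were tested and 0 passed, with 11 positive and 2 negative differences, whose median was 0.03. Scaling of the libraries moved the median over all genes from -0.08 to 0.0055, a larger shift than that median. Me1, malic enzyme, had 105, 93.3 and 93.9 scaled TPM in chloride and 100, 104 and 103 in propionate, while Scd1, stearoyl-CoA desaturase, had 162, 153 and 156 in chloride and 173, 154 and 169 in propionate. Both overlapped between the salts, with differences of 0.08 ± 0.06 and 0.07 ± 0.06.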

How the data were processed

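Total RNA libraries of GL261 cells were made with a stranded kit, per the labels' protocols. Tools named in the submitters' processing notes, without their roles, are bcl2fastq, fastp, HISAT2 and StringTie, beside the build mm10. StringTie 2.1.1, per the file headers, quantified 1 common set of reference and assembled transcript models in each library, and the deposited values are TPM, FPKM and coverage per model, not counts. No source used here gives the strand setting.

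Here TPM were summed per gene, and each library was scaled by the median of its ratios to the geometric mean, with factors of 0.966 to 1.09. Genes that averaged 1 TPM or more and whose longest transcript had 200 nt or more were tested two-sided with limma 3.58.1 (variance trend) in R 4.3.3 on log2(scaled TPM + 1), adjusted over all genes by Benjamini-Hochberg and called at 0.05. Intervals are 95% intervals of that fit, and depth is coverage divided by FPKM. Gene positions are from GENCODE M21, and the code was checked on simulated data. Other work used matplotlib 3.10.9, numpy 2.4.6 and pandas 2.3.3 under Python 3.11.15. The 28 genes, the lists around them and the markers were chosen with earlier results of these data known. The result of 1 marker list is not reported here. Every one of the 28 is named, and of each list around them the 2 genes with the smallest p. Transcript models, Acat3 and Srebf1 starts were named after their values were seen.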

Additional observations from a re-analysis of the deposited data

How the results depend on the processing

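No setting put any of the 28 genes past the threshold: 0 were higher and 0 lower in each of the 18 alternatives. The median difference over them was -0.03 with TPM as deposited (all genes -0.08), and leaving out 1 library in turn gave 0.02 to 0.09, the lowest without chloride 3. The count of all genes higher past the threshold was 1, and it was 0 with no filter on low values and with voom, 2 when summed over the assembled locus and with library weights, and 5 without the pair chloride 3 and propionate 1, which also gave 1 lower. Leaving out 1 library gave 1 to 4, the highest without propionate 1. No paired analysis was possible because the groups share only replicate number 1.

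Signs of single genes turned as follows, on the log2 scale. The median over all genes with TPM as deposited was itself -0.08, and why single signs turned was not tested. With TPM as deposited Srebf1 was -0.01, Insig1 -0.07, Insig2 -0.04, Idi1 -0.06, Fdps -0.01, Fdft1 -0.03, Cyp51 -0.02, Msmo1 -0.04, Hsd17b7 -0.05 and Ebp -0.03. With reference transcripts alone Insig2 was -0.67, Hmgcs1 -0.10, Dhcr7 1.67 and Nr1h2 0.08. Summed over the locus Tm7sf2 was 0.07. With voom Dhcr7 was 0.0035 and Nr1h2 0.03, and with library weights Sqle was 0.09 and Dhcr7 0.09. Without the pair Srebf1 was -0.04, Insig1 -0.00048, Mvd 0.03, Sqle 0.07, Tm7sf2 0.02, Hsd17b7 -0.05, Sc5d 0.0089 and Nr1h2 0.06. Leaving out 1 library at a time gave ranges that crossed 0 for 9 genes. They were -0.09 to 0.11 for Dhcr7, -0.06 to 0.08 for Insig1, -0.05 to 0.15 for Idi1, -0.07 to 0.03 for Sqle, -0.20 to 0.02 for Tm7sf2, -0.07 to 0.10 for Hsd17b7, -0.11 to 0.10 for Nr1h2, -0.00073 to 0.23 for Srebf2 and -0.0089 to 0.14 for Msmo1. The sign turned for Dhcr7 without chloride 1, chloride 2 or propionate 4, for Insig1 and Idi1 without chloride 3 or propionate 4, and for Sqle without chloride 3 or propionate 1. It turned for Tm7sf2 without chloride 3, for Hsd17b7 and Nr1h2 without chloride 3 or propionate 5, for Srebf2 without propionate 1 and for Msmo1 without propionate 4. The sign did not turn for the other 10 genes, but their differences could come near 0, with ranges over all settings of 0.02 to 0.74 for Scap, 0.10 to 0.24 for Acat2, 0.10 to 0.27 for Mvk, 0.02 to 0.22 for Pmvk, -0.13 to -0.0024 for Lss, 0.07 to 0.24 for Nsdhl, -0.14 to -0.03 for Stard4, -0.29 to -0.09 for Npc1, 0.0076 to 0.29 for Nr1h3 and 0.02 to 0.13 for Mylip. With 3 libraries per salt, the precision is that of the intervals given above, and depth beyond the counted bases is unknown.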
